A study of Mus musculus with 16 samples.

Results

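The effect of the Jak2V617F mutation that hematopoietic stem cells (HSC) and a later progenitor, Fcgr-negative MPP3, had in common was measured over all 16 of the 16 libraries of the series. The groups were HSC from wild-type control mice, HSC from Jak2V617F mice, Fcgr-negative MPP3 from wild-type control mice and Fcgr-negative MPP3 from Jak2V617F mice, with 4 libraries in each. All the cells came from bone marrow, and each library was made from the RNA of 7000 to 10000 cells. The labels give each library a replicate number from 1 to 4 and call that number a batch. The sources used here do not give the age of the mice, the zygosity of the mutation, the promoter that drives it or the sorting gates. The labels do not say that the libraries of a group came from separate animals, so the p-values measure the spread between these libraries, which may be technical. They also do not say whether HSC and MPP3 of the same number came from the same animals. For each gene the effect in HSC and the effect in MPP3, each mutant against control on the log2 scale, were averaged in 1 additive model of genotype, cell type and replicate number. Where the cell types differ widely in level, this average can lie nearer the effect in the one with more counts. A gene was called when the adjusted p of this average was under 0.05. It was taken to move the same way in both cell types when it was called, both effects had the sign of the average, and the unadjusted p was under 0.05 in each cell type. Of 14179 genes tested, 1151 did so.

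JAK2 is a tyrosine kinase bound to the receptors for erythropoietin and several other cytokines, and it passes their signal on through STAT transcription factors. The Jak2V617F change lies in the regulatory pseudokinase domain and leaves the kinase active without cytokine. It is known for driving myeloproliferative neoplasms, which arise in stem cells. STAT5 switches on feedback inhibitors of the same pathway, such as CISH and the SOCS proteins. HSC divide rarely, whereas MPP3 are myeloid-biased progenitors that divide more often.

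In units of 1e6 estimated read counts, library totals were 33.4 to 41.5, and 14439 to 16522 genes had a count. The first principal component (32.5% of the variance of the log2 levels) separated HSC from MPP3, and the second (9.68%) separated genotypes within each cell type. The library of mutant MPP3 replicate 3 lay at 10.4 on the second component, between the other mutant MPP3 (-48.8 to -32.3) and the control MPP3 (29.1 to 53.3). The Y-linked gene Ddx3y had no count in any library of numbers 1 and 4, and 33.4 to 66.8 CPM (counts per 1e6 counts of the library) in those of numbers 2 and 3. Slamf1, a surface marker of HSC, had 30.6 to 60.3 CPM in HSC and 1.01 to 3.54 CPM in MPP3, which the labels mark as Fcgr-negative without naming a gene of that receptor family. Of its genes, Fcgr3 had 2.34 to 9.29 CPM in control MPP3 and 1.87 to 6.93 CPM in mutant MPP3, and Fcgr2b 8.07 to 39.2 and 16.2 to 29.8 CPM, against at most 0.426 and 8.16 CPM in any HSC library. Jak2 itself had 14.9, 20.8, 22 and 29.3 CPM in control HSC and 27.4, 30, 18.2 and 27.8 CPM in mutant HSC. In MPP3 it had 18.5, 27.9, 21.4 and 30.8 CPM in the controls and 21.7, 23.2, 32.5 and 20.3 CPM in the mutants. The genotypes overlapped in both cell types (log2 fold change 0.15 ± 0.16, adjusted p = 0.601). These gene counts do not separate the mutant from the wild-type allele, so they check no label.

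The average effect was called for 2029 of the 14179 genes (14.3%), 1136 higher in the mutant (8.01%) and 893 lower (6.3%). In 2026 of the 2029 the effects in HSC and MPP3 had the same sign, and in 3 they had opposite signs. A call on the average favours genes whose effects share a sign, so this count does not measure agreement between the cell types. Of all 14179 genes, called or not, 4236 had a positive and 5382 a negative effect in both cell types. The correlation of the HSC and MPP3 effects across all genes was 0.21. The 1151 genes that moved the same way (8.12% of the genes tested) were 664 higher (4.68%) and 487 lower (3.43%). The lower genes changed by more than the higher ones: the median log2 fold change was -0.64 among the 487 and 0.40 among the 664, against -0.05 over all genes tested. Changes over 2-fold in each cell type were found for 88 of the lower and 5 of the higher genes. In 316 genes (2.23%) the libraries of the genotypes did not overlap in either cell type and lay in the same direction, 212 of them higher (1.5%) and 104 lower (0.733%). The effect was larger in HSC than in MPP3 for 1536 of the 2029 called genes, and the median ratio of the MPP3 to the HSC effect was 0.65 for those called higher and 0.78 for those called lower. By itself the HSC comparison called 1394 genes (9.83%) and the MPP3 comparison 82 (0.578%). The difference between the effects was called for 1 gene (0.00705%), with 1084 under an unadjusted p of 0.05 in edgeR's quasi-likelihood test. Of the 2029 genes, 868 were called in neither cell type alone. At the threshold, Mmp2 was the last gene inside (adjusted p = 0.0499) and Mrpl54 the first outside (adjusted p = 0.0501). HSC and MPP3 libraries of the same genotype and number entered the model as independent libraries. When they were averaged per genotype and number, which leaves 8 values, 865 genes were called (439 higher, 426 lower). The number of calls also depended on the replicate numbers included. It was 868 without number 1, 823 without number 2 and 539 without number 4, and at least 2024 of the 2029 genes kept the sign of their average in each of these. Without mutant MPP3 replicate 3, the library nearest the controls, it was 2259.

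**Figure D1:**
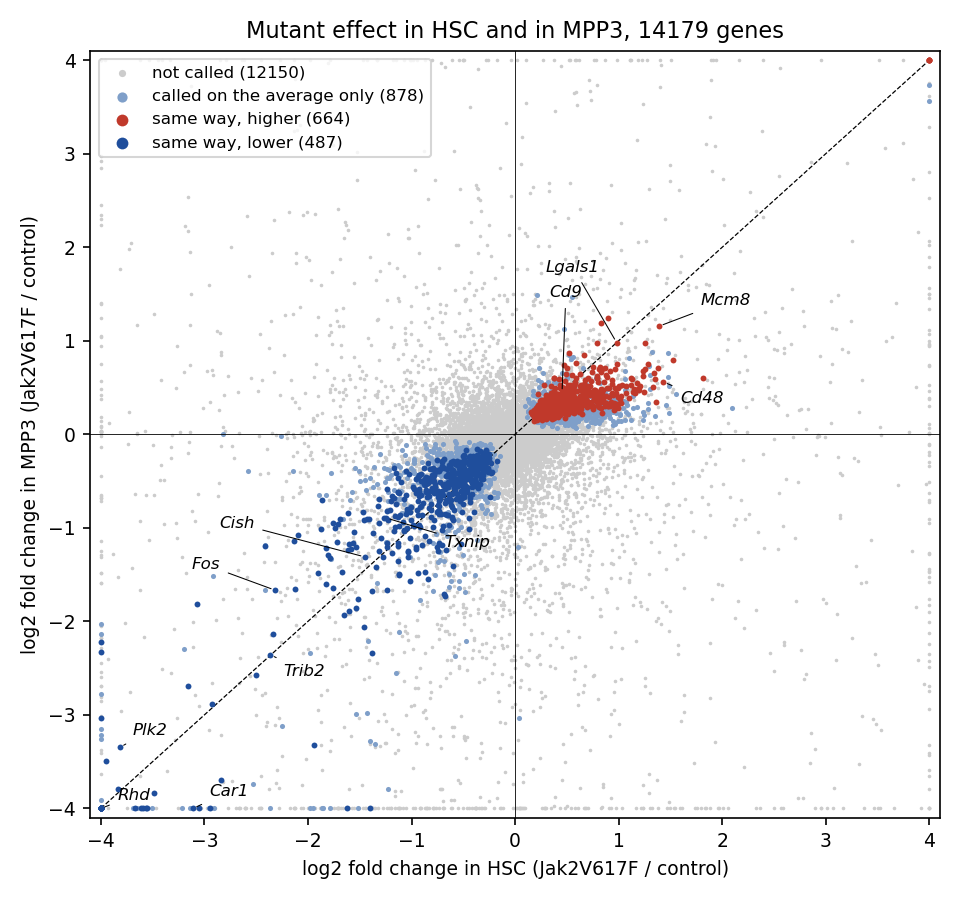
Log2 fold change of mutant against control in HSC (horizontal axis) and in MPP3 (vertical axis) for the 14179 genes tested, with values beyond 4 drawn at the edge and the dashed line marking equal effects. The 664 red and 487 dark blue points moved the same way in both cell types, and 1536 of the 2029 called genes have the larger change in HSC.

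A stricter criterion asked each cell type for the change on its own: the larger of the HSC and MPP3 p-values was adjusted over all genes. It was met by 11 genes (0.0776% of those tested), of which 10 were lower (0.0705%) and 1 was higher (0.00705%). Among the lower genes were Cbfa2t3, Fos, Jun, Trib2, Cish, Txnip, Aplp2, Gcnt2 and Ldhb, and the higher gene was Cd9. Cbfa2t3, Aplp2, Gcnt2 and Ldhb fell outside the naming rule and were chosen after their values were seen. The count moved by over 1.5 times without any 1 of 15 libraries, all but mutant HSC replicate 3. It was 18 without mutant MPP3 replicate 3 and 1 to 4 without any other of the 15. It was 87 without replicate number 3, and in edgeR's test it was 0 without number 1 or without the replicate block.

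Cbfa2t3 encodes the corepressor ETO2, a partner of hematopoietic transcription factors. It had 166, 181, 221 and 153 CPM in the control HSC and 73.2, 104, 125 and 79.9 CPM in the mutant HSC of numbers 1 to 4, and 148, 175, 164 and 117 CPM in control MPP3 and 63.8, 89.8, 97.9 and 60.2 CPM in mutant MPP3. In both cell types every mutant library was below every control library, by -0.93 in HSC and -0.97 in MPP3 on the log2 scale (log2 fold change -0.95 ± 0.07, adjusted p = 1.08e-05; adjusted p = 0.00345 for both cell types). Aplp2, an amyloid precursor-like membrane protein, was lower without overlap in each cell type (log2 fold change -0.95 ± 0.09, adjusted p = 0.000154). Gcnt2, the enzyme that branches the I blood group antigen, fell as well (log2 fold change -0.56 ± 0.06, adjusted p = 0.000195), as did Ldhb, a lactate dehydrogenase subunit (log2 fold change -0.78 ± 0.08, adjusted p = 0.000195).

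Cd9, a tetraspanin of HSC and megakaryocytes, was the gene of this group that rose. Its 4 control HSC libraries had 176, 177, 194 and 161 CPM and its mutant HSC libraries 243, 251, 266 and 209 CPM. In MPP3 the controls had 75.1, 83.3, 94.5 and 79.5 CPM and the mutants 101, 115, 127 and 109 CPM. The increase was small and even, with no overlap and nearly the same size in HSC (log2 fold change 0.45) and MPP3 (0.44; average 0.45 ± 0.05, adjusted p = 0.000233). Trib2, a pseudokinase that binds C/EBPα and promotes its breakdown, showed the largest fall of the group. It went from 36.8, 25.6, 14.1 and 24.1 CPM in control HSC to 5.66, 4.07, 4.16 and 5.04 CPM in mutant HSC, and from 13, 11.6, 10.7 and 12.4 to 4.92, 0.642, 1.51 and 3.63 CPM in MPP3. All mutant libraries were below all controls of their cell type (log2 fold change -2.36 ± 0.26, adjusted p = 0.000233).

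**Figure D2:**
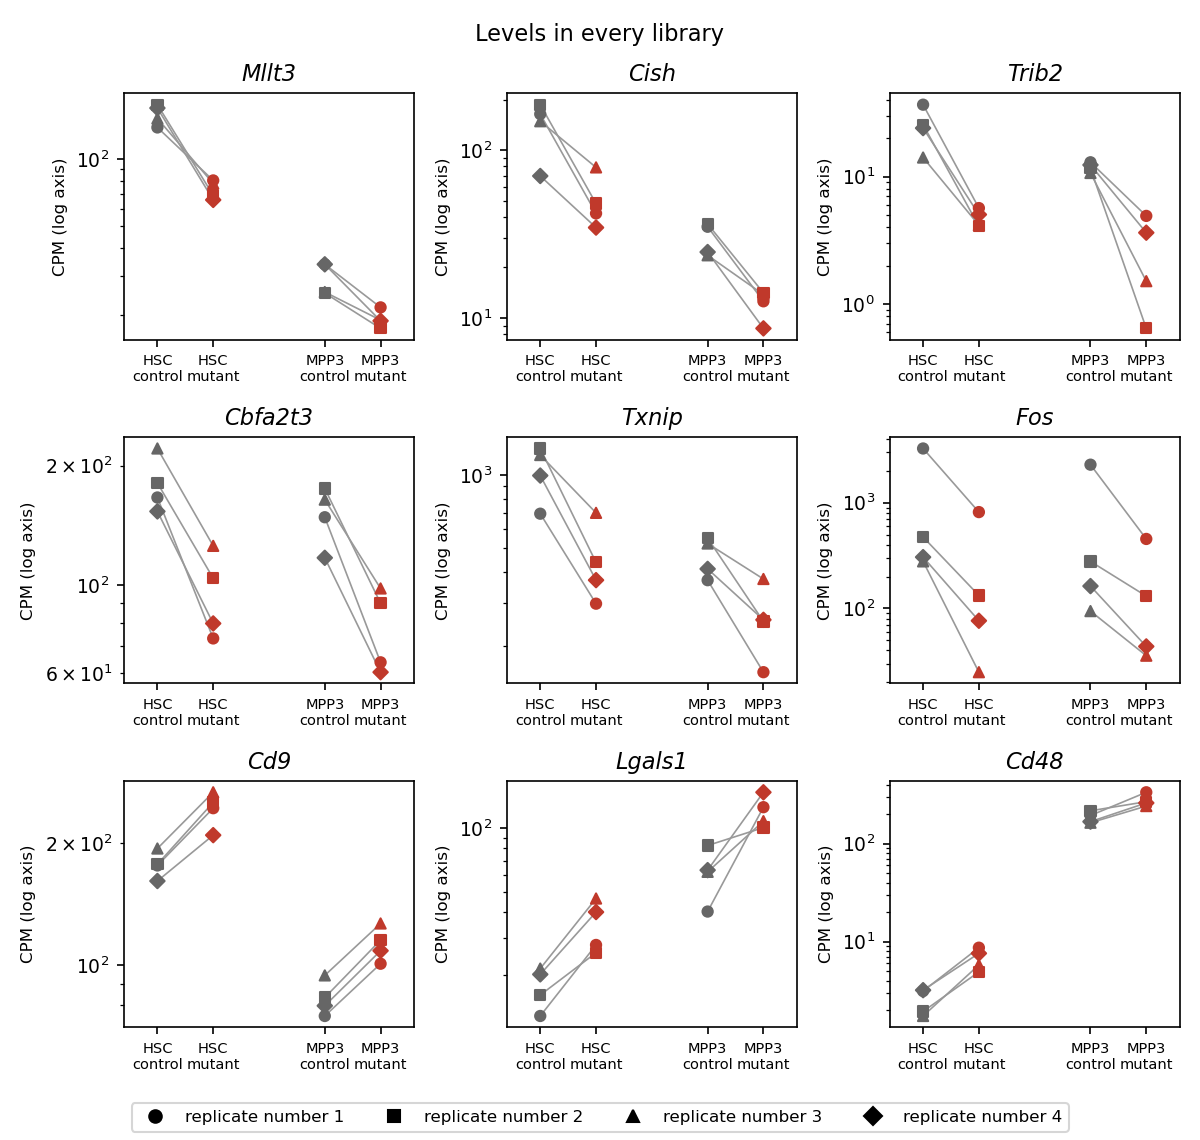
CPM (log axis) of 9 genes in every library, control in grey and Jak2V617F in red, with a marker shape for each replicate number and a line joining the same number. Mllt3, Trib2 and Cbfa2t3 lie lower and Cd9, Lgals1 and Cd48 higher in every mutant library than in every control library of the same cell type, while Fos is lower in each of the 8 pairs although the genotypes overlap.

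On average over both cell types, components and targets of the JAK2 pathway were lower rather than higher. Of 29 tested signalling components, 7 fell (24.1%, against 6.3% of all genes) and 1 rose, with a median of -0.24 on the log2 scale. Of 26 tested targets and feedback genes 6 fell (23.1%) and none rose, with a median of -0.22. Medians in HSC and MPP3 were -0.342 and -0.137 for components and -0.328 and -0.039 for targets. Over all genes they were -0.051 and -0.024. By the criterion for each cell type, 1 of the 29 components and 3 of the 26 targets moved lower the same way, against 3.43% of all genes. For the components this is near the share over all genes. Among the called components that fell were Ptpn1, a phosphatase of JAK2 (-0.38 ± 0.09), the stem cell factor receptor Kit (-0.27 ± 0.07), Csf2ra, Jak1, Jak3 and Stat3. None of these named components met the criterion for each cell type. The count of 7 fell to 1 without replicate number 1, to 2 without number 2 or number 4, and to 3 or 4 without control MPP3 replicate 1 or 4, control HSC replicate 1, 2 or 3, mutant MPP3 replicate 1, or mutant HSC replicate 1, 2 or 4. The count of 6 targets was 3 without number 1, number 4 or the replicate block. With the cell types averaged per genotype and number, 2 components and 3 targets were called lower.

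Cish, the feedback inhibitor CIS and a STAT5 target, was the clearest of the target genes. It had 164, 186, 149 and 70.1 CPM in control HSC and 42, 48, 78.9 and 34.5 CPM in mutant HSC, and 34.9, 36.3, 23.6 and 24.7 CPM in control MPP3 and 12.6, 14.1, 13.8 and 8.66 CPM in mutant MPP3. Mutant libraries were below the controls without overlap in MPP3, and in HSC the lowest control overlapped the highest mutant, while each mutant was below the control of its own number (log2 fold change -1.38 ± 0.15, adjusted p = 0.000207). The start of Cish holds paired matches to the STAT motif TTCNNNGAA, which reads the same on both strands, at 0 and 11 bases after the RefSeq start on GRCm38.p6. The stretch is shown because Cish is the target gene with the smallest adjusted p, with the matches in capitals, and it lies at chr9:107296654-107296683 on the plus strand.
Cish: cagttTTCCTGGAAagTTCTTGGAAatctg
Windows of 300 bases around RefSeq starts (250 before to 50 after) held this motif in 6.92% of 13288 windows of tested genes, in 6.89% of those of genes that moved higher the same way and in 5.9% of those that moved lower.

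Pim1, a serine/threonine kinase induced by STAT5, fell from 549, 309, 353 and 421 CPM in control HSC to 300.5, 174, 177 and 235 CPM in mutant HSC, without overlap. Levels in MPP3 were 662, 274, 397 and 511 CPM in the controls and 384, 284, 379 and 327 CPM in the mutants, which overlapped (log2 fold change -0.62 ± 0.11, adjusted p = 0.00293). Socs3, another feedback inhibitor, was called on average (log2 fold change -0.99 ± 0.27, adjusted p = 0.0239) but with -1.50 in HSC and -0.50 in MPP3, and it lost the call under 11 of 30 alternatives. These included leaving out control MPP3 replicate 1, control HSC replicate 2, mutant MPP3 replicate 1, or mutant HSC replicate 2 or 4. Socs2 and Myc were not called (log2 fold change 0.15 ± 0.20, adjusted p = 0.679 and log2 fold change -0.33 ± 0.14, adjusted p = 0.124, respectively), and Socs1 was not among the genes tested.

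Genes of the cell cycle rose as a group. Of 43 tested DNA replication genes, 40 were called higher (93%, against 8.01% of all genes) and none lower. Of 40 tested mitosis genes 32 were called higher (80%) and none lower. Their median log2 fold changes were 0.54 and 0.58 on average, 0.76 and 0.85 in HSC, and 0.30 and 0.31 in MPP3. By the criterion for each cell type, 19 replication and 18 mitosis genes moved higher the same way. The summed level of the replication list was 5842 to 7078 CPM in control HSC and 9176 to 12060 CPM in mutant HSC, without overlap. In MPP3 it was 9534 to 10970 CPM in the controls and 11040 to 13260 CPM in the mutants, also without overlap but with the mutant library of number 3 close to the control of its number. Without number 1, 2 or 4 the count of called replication genes was 25, 23 or 16, and that of mitosis genes 20, 25 or 13.

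Pola1, the catalytic subunit of DNA polymerase alpha, had 49.6, 54.9, 43.8 and 43.3 CPM in control HSC and 94.9, 93.6, 64 and 102 CPM in mutant HSC. For MPP3 the values were 77.5, 69.2, 70.5 and 62.6 and 128, 96.3, 104 and 108 CPM, and the genotypes did not overlap in either cell type (log2 fold change 0.76 ± 0.09, adjusted p = 0.000568). Tk1, which salvages thymidine for DNA synthesis, rose by a log2 fold change of 0.80 ± 0.11 (adjusted p = 0.00088), again without overlap. Chaf1b, a subunit of the histone chaperone that follows the replication fork, rose by 0.50 ± 0.07 on the same scale, with an overlap in MPP3. Further members with the same direction in both cell types were the helicase subunits Mcm2, Mcm3, Mcm5 and Mcm7, the sliding clamp Pcna and the ribonucleotide reductase subunits Rrm1 and Rrm2. Clspn, which carries the replication checkpoint signal to CHK1, was among the 12 largest rises by the naming rule (log2 fold change 1.04 ± 0.18, adjusted p = 0.0027).

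Cdc20, an activator of the anaphase-promoting complex, had 67.5, 61.1, 95.8 and 81.8 CPM in control HSC and 120.3, 108, 160 and 141 CPM in mutant HSC. In MPP3 it had 94.8, 77.6, 131 and 99.6 CPM in the controls and 127, 114, 155 and 138 CPM in the mutants. It was higher in the mutant in all 8 pairs of libraries with the same number, with an overlap in MPP3 (log2 fold change 0.61 ± 0.07, adjusted p = 0.000394). Ncapd2, a condensin subunit, and Mad2l1, a spindle checkpoint protein, rose by 0.69 ± 0.10 and 0.60 ± 0.09 (log2 fold change, adjusted p = 0.000978 and 0.00114). Bub1, a spindle checkpoint kinase, was higher without overlap in both cell types (log2 fold change 0.77 ± 0.12, adjusted p = 0.0014).

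The promoters of these lists are shown for the members with the smallest adjusted p that hold the motif named for their list, since these genes moved together. Capitals mark the motif on either strand: GCGGGAA (E2F) in Pola1, 169 and 121 bases before the RefSeq start, and TTTGAA (CHR, the cell cycle homology region) in Cdc20 and Ncapd2, 18 and 123 bases before it. The stretches lie at chrX:93632256-93632355, chr4:118437344-118437443 and chr6:125191697-125191756, all on the minus strand of GRCm38.p6, and no match overlapped another motif searched.
Pola1: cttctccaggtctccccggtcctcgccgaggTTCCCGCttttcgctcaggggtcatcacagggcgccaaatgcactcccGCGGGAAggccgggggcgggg
Cdc20: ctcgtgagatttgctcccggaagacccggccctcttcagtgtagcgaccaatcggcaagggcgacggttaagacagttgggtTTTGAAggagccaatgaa
Ncapd2: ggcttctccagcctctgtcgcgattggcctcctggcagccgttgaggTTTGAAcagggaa
The stretches of Cdc20 and Ncapd2 also hold 2 and 1 matches to CCAAT (NF-Y) on either strand. TTTGAA was found in 72.7% of the 33 windows of mitosis genes and in 12.3% of the 13288 windows of all tested genes, and GCGGGAA in 38.1% of the 42 windows of replication genes and in 7.96% of all. Among all genes that moved higher the same way the shares were 17.8% and 14.7%, and among those that moved lower 10.1% and 5.35%. A window was found for 10396 of 14166 tested symbols, so these shares describe the genes matched.

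Brakes on the cell cycle moved in the other direction. Of 18 tested, 7 were called lower (38.9%, against 6.3% of all genes) and none higher, with a median of -0.41. Of the 7, 5 moved lower the same way: Txnip, Foxo3, Gadd45a, Tob1 and Tob2. Txnip, an inhibitor of thioredoxin and glucose uptake that slows proliferation, had 694, 1285, 1208 and 995 CPM in control HSC and 297, 438, 699.8 and 371 CPM in mutant HSC. The MPP3 libraries had 371, 551, 524 and 412 CPM in the controls and 156, 251, 375 and 255 CPM in the mutants. Libraries of number 3 were the highest of both mutant groups, so the genotypes overlapped, yet the mutant was lower in all 8 pairs (log2 fold change -1.07 ± 0.10, adjusted p = 0.000154). Foxo3, a transcription factor of quiescence, fell (log2 fold change -0.61 ± 0.08, adjusted p = 0.000753), and so did Gadd45a, a growth arrest gene (log2 fold change -1.02 ± 0.19, adjusted p = 0.00364). The count of called brakes was 3 without number 1. In the E2F and RB list 5 of 22 members rose (22.7%, against 8.01% of all genes). Only 1 of the 22 moved higher the same way, which is near the 4.68% of all genes. The gene that did so was Cdk4, the kinase of the G1 phase (log2 fold change 0.32 ± 0.05, adjusted p = 0.00207). The count of 5 was 1 without number 1 or number 2 and 2 without number 4. It was 3 without control MPP3 replicate 1, any control HSC library, or mutant HSC replicate 2 or 4.

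Subunits of the proteasome, which degrades ubiquitin-tagged proteins, rose in step. Of 36 tested, 30 were called higher (83.3%, against 8.01% of all genes) and none lower, 24 of them the same way in both cell types. Median log2 fold changes were 0.37 in HSC and 0.25 in MPP3. The summed level was 7559 to 8199 CPM in control HSC and 9674 to 10310 CPM in mutant HSC. In MPP3 it was 8735 to 9370 CPM in the controls and 9470 to 11320 CPM in the mutants. The genotypes overlapped in neither cell type, with the mutant MPP3 library of number 3 the lowest of its group. Psma7, a subunit of the catalytic core, had 344, 337, 367 and 367 CPM in control HSC and 511, 485, 461 and 521 CPM in mutant HSC. Levels in MPP3 were 394, 369.6, 432 and 420.5 and 549, 474, 455 and 557 CPM, without overlap (log2 fold change 0.41 ± 0.06, adjusted p = 0.000904). Psmc5, an ATPase of the regulatory particle (0.39 ± 0.06), and Psme2, a subunit of the interferon-inducible activator (0.41 ± 0.06), rose by similar amounts. The count was 19 without number 2, 10 without number 4 and 14 with the cell types averaged per genotype and number.

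Nuclear genes of oxidative phosphorylation rose, and the genes of the same pathway that the mitochondrial genome encodes fell. Of 49 nuclear gene rows tested (Atp5o has 2), 32 were called higher (65.3%) and none lower, 26 the same way in both cell types. Of all genes, 8.01% were called higher and 6.3% lower. Medians of the nuclear list were 0.34 in HSC and 0.24 in MPP3. Sdhb, the iron-sulphur subunit of complex II, had 236, 206, 210.2 and 202 CPM in control HSC and 280.5, 313, 274 and 315 CPM in mutant HSC. For MPP3 the values were 279, 242, 264 and 256 and 356, 326, 305 and 334 CPM, so that no library of the genotypes overlapped (log2 fold change 0.41 ± 0.06, adjusted p = 0.000904). Uqcrq of complex III rose by 0.58 ± 0.08 and Sdhc of complex II by 0.37 ± 0.06. The count was 10 without number 4 and 15 with the cell types averaged. Of the 13 respiratory chain genes on the mitochondrial genome, a group looked at after its values were seen, 10 were called lower and none higher, with medians of -0.55 in HSC and -0.26 in MPP3. mt-Nd2 fell by 0.54 ± 0.07 (adjusted p = 0.000576) and mt-Co1 by 0.50 ± 0.10 (adjusted p = 0.00413) on the log2 scale, while mt-Nd1 was not called (-0.03 ± 0.05, adjusted p = 0.748). Mitochondrial genes took 1.45% to 2.03% of the counts in control HSC and 0.924% to 1.37% in mutant HSC, without overlap, and 1.28% to 1.95% and 1.23% to 1.41% in control and mutant MPP3, which overlapped.

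Ribosome biogenesis and glycolysis showed smaller changes. Of 30 tested biogenesis genes 15 rose and none fell (median 0.26), led by the nucleolar proteins Ncl (log2 fold change 0.38 ± 0.06, adjusted p = 0.0017), Npm1 (0.35 ± 0.06) and Fbl (0.40 ± 0.07), with 8 moving the same way. Without number 1, 2 or 4 the count was 6, 3 or 3, and it was 9 without control HSC replicate 2 and 2 with the cell types averaged. In the glycolysis and hypoxia list 6 of 30 rose (20%) and 4 fell (13.3%), with a median of -0.04. Of all genes, 8.01% were called higher and 6.3% lower. The glycolytic enzymes Pgk1 (log2 fold change 0.52 ± 0.07, adjusted p = 0.00088), Pgam1 (0.45 ± 0.08) and Ldha (0.42 ± 0.07) rose, which sets Ldha apart from Ldhb, the other lactate dehydrogenase subunit and one of the genes that fell by the stricter criterion. Without number 1 or number 4, 3 genes of this list were called higher.

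**Figure D3:**
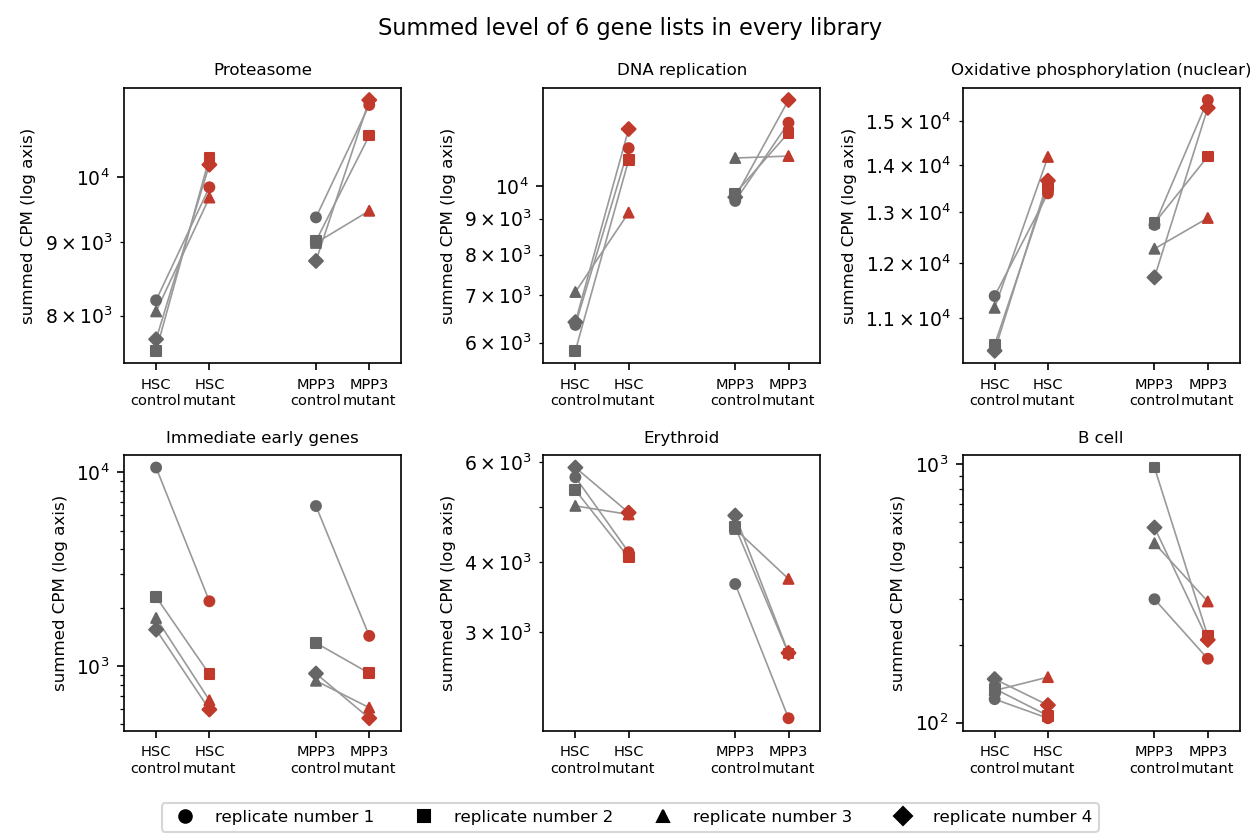
Summed CPM (log axis) of 6 gene lists in every library, control in grey and Jak2V617F in red, with a marker shape for each replicate number and a line joining the same number. Proteasome and DNA replication sums are higher in every mutant library than in every control library of the same cell type, the mutant MPP3 library of number 3 lies nearest the MPP3 controls in all panels but that of immediate early genes, and the latter are highest in number 1 of each group.

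Genes of the unfolded protein response, by which cells adapt to misfolded protein in the endoplasmic reticulum, did not move as 1 group. Among 24 sensors and regulators, 5 fell (20.8%) and 1 rose (4.17%), against 6.3% and 8.01% of all genes. Xbp1, the transcription factor made active by the sensor IRE1, had 48.4, 43.8, 39.9 and 33.4 CPM in control HSC and 18.4, 18.8, 24.4 and 14.9 CPM in mutant HSC. In MPP3 it had 32.9, 29.5, 20.1 and 19.9 CPM in the controls and 22.7, 17.3, 18.7 and 13.3 CPM in the mutants. It was lower without overlap in HSC and lower in all 8 pairs (log2 fold change -0.81 ± 0.14, adjusted p = 0.00219). Ern1, which encodes IRE1 itself, fell as well (log2 fold change -0.92 ± 0.21, adjusted p = 0.0106), although the call was lost without number 2 or number 4. Ppp1r15a, which restarts translation by dephosphorylating eIF2α, fell (log2 fold change -1.38 ± 0.24, adjusted p = 0.00224). Hspa5, the main chaperone of the endoplasmic reticulum, and Atf4, the transcription factor below PERK, were not called (log2 fold change 0.07 ± 0.13, adjusted p = 0.788 and log2 fold change 0.01 ± 0.09, adjusted p = 0.975), and both changed sign under some alternatives. Ddit3, a pro-apoptotic factor, was just outside the threshold (log2 fold change -0.42 ± 0.14, adjusted p = 0.053).

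Targets of PERK and ATF4 included 14 that rose (38.9%) and 3 that fell (8.33%) out of 36, against 8.01% and 6.3% of all genes. Of these, 10 and 2 moved the same way. The risers with the smallest adjusted p were Aars, an aminoacyl-tRNA synthetase (log2 fold change 0.56 ± 0.07, adjusted p = 0.000753), Mthfd2 of one-carbon metabolism (log2 fold change 0.93 ± 0.14, adjusted p = 0.00138) and Psat1 of serine synthesis (log2 fold change 0.71 ± 0.11, adjusted p = 0.0017). The others were the aminoacyl-tRNA synthetases Tars, Mars, Iars, Eprs, Nars and Wars, the serine enzymes Phgdh and Shmt2, and the amino acid transporter subunits Slc7a5, Slc7a11 and Slc3a2. The genes that fell were Trib3, Sesn2 and Ddit4, which restrain growth under stress, at -1.24, -0.75 and -0.93. The 4 control HSC libraries had 126, 116, 127 and 115 CPM of Aars and the mutants 154, 204, 159 and 206 CPM. In MPP3 the values were 147, 129.5, 119 and 118 and 193, 185, 181 and 194 CPM, and mutants were above controls without overlap in both. In the list of IRE1 and XBP1s targets 8 of 34 rose (23.5%) and 1 fell (2.94%). Among the risers were Spcs3 of the signal peptidase (log2 fold change 0.52 ± 0.09, adjusted p = 0.00289) and Rpn1 of the oligosaccharyl transferase (0.34 ± 0.06). Of 26 ATF6 targets and chaperones 8 rose (30.8%) and 1 fell (3.85%). Among the risers was the calcium-binding chaperone Calr (log2 fold change 0.40 ± 0.08, adjusted p = 0.00573). The counts for PERK, IRE1 and ATF6 were 6, 5 and 2 without number 1, 3, 2 and 2 without number 2, 3, 1 and 0 without number 4, and 4, 2 and 2 with the cell types averaged per genotype and number. For IRE1 the count was 3 to 5 without control MPP3 replicate 4, control HSC replicate 2, 3 or 4, mutant MPP3 replicate 4 or mutant HSC replicate 4. For ATF6 it was 4 or 5 without control MPP3 replicate 4, control HSC replicate 2 or 4, mutant MPP3 replicate 1 or 4, or mutant HSC replicate 1, 2 or 4. The calls of Rpn1 and Calr were lost without number 4, and that of Calr also without number 2. The count of 5 regulators called lower was 3 without mutant HSC replicate 2 and 3 without any of the 4 numbers or with the cell types averaged.

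Immediate early genes, which respond within minutes to growth factors and to stress, included some of the largest falls. Of 25 tested, 15 fell (60%, against 6.3% of all genes) and none rose, 10 the same way in both cell types. Medians were -1.43 in HSC and -0.71 in MPP3. Fos, a subunit of the AP-1 transcription factor, had 3266, 473, 278 and 305 CPM in control HSC and 816, 132, 24.8 and 76.2 CPM in mutant HSC. The MPP3 libraries had 2294, 278, 94.1 and 162 CPM in the controls and 454, 130.5, 35.6 and 43.5 CPM in the mutants. Number 1 was the highest in each of the 4 groups by several fold, so the genotypes overlapped, while within each number the mutant was lower in 8 of 8 pairs (log2 fold change -1.99 ± 0.19, adjusted p = 0.000154). Jun, the partner of FOS, had, in CPM, 196, 90.8, 24.8 and 40 in the control HSC libraries, 69.7, 28.4, 9.62 and 13.3 in the mutant HSC libraries, 158, 60.9, 16.1 and 23 in control MPP3 and 38.9, 26.8, 11.8 and 9.89 in mutant MPP3, with the same order (log2 fold change -1.37 ± 0.14, adjusted p = 0.000173). Fosb (log2 fold change -2.24 ± 0.32, adjusted p = 0.00115) and Zfp36, which destabilises cytokine mRNAs (log2 fold change -1.52 ± 0.18, adjusted p = 0.000517), were also lower in all 8 pairs. The summed level of the list was 1541 to 10580 CPM in control HSC and 596 to 2158 CPM in mutant HSC, and 839 to 6696 and 538 to 1430 CPM in control and mutant MPP3. Without the replicate block 7 genes of the list were called, and Fos, Fosb, Jun and Zfp36 were not, while 8 were called without number 1. Of 26 NF-kB targets 8 fell (30.8%) and none rose, among them the chemokine Ccl4 (log2 fold change -1.57 ± 0.34, adjusted p = 0.00738). The count of 8 was 2 without number 1, 0 without number 4 and 5 without mutant HSC replicate 1 or number 2. It was 4 without mutant HSC replicate 4 and 5 with the cell types averaged, and the call of Ccl4 was lost without number 4.

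Stem cell genes were lower on average. Of 34 transcription factors and chromatin genes of HSC 9 fell (26.5%, against 6.3% of all genes) and none rose. The median was -0.39, with -0.51 in HSC and -0.17 in MPP3. Of the 9, 6 moved the same way: Trib2, Zfp36, Mllt3, Gata3, Hlf and Egr1. Zfp36 and Egr1 are counted among the immediate early genes as well. Number 1 stood apart in the controls, with a summed level of the list of 6323 CPM against 3419 to 3748 CPM in the other control HSC and 3789 CPM against 1898 to 2173 CPM in the other control MPP3, while the mutants ran from 2563 to 2857 CPM in HSC and from 1664 to 1919 CPM in MPP3. Zfp36 alone had 1905 CPM in control HSC of number 1, against 310.6 to 425.9 CPM in the others. In control MPP3 it had 1398 CPM against 185.7 to 257.5 CPM. The high sums of number 1 thus cannot be read as those of the other members. Mllt3, a cofactor that maintains HSC, had 139, 176, 152 and 169.6 CPM in control HSC and 80.3, 68.9, 77.8 and 65.7 CPM in mutant HSC. Levels in MPP3 were 33.8, 25.1, 25.4 and 33.8 CPM in the controls and 21.6, 17.4, 19 and 18.8 CPM in the mutants, and the genotypes did not overlap in either (log2 fold change -0.87 ± 0.11, adjusted p = 0.000582). Of 32 surface and niche markers 9 fell (28.1%) and 1 rose, with a median of -0.25. The median was -0.406 in HSC and -0.046 in MPP3, against -0.051 and -0.024 over all genes. Of the 9, 3 fell the same way in both cell types. Mmrn1, an adhesive protein of platelets and HSC, fell by a similar amount in HSC (-0.76) and in MPP3 (-0.83; log2 fold change -0.79 ± 0.14, adjusted p = 0.00262). Procr, the HSC marker EPCR, was called on average (log2 fold change -0.63 ± 0.19, adjusted p = 0.0415), but with -1.09 in HSC and -0.17 in MPP3, and it lost the call under 17 of 30 alternatives, among them leaving out control MPP3 replicate 4, any control HSC library, mutant MPP3 replicate 2, 3 or 4, or mutant HSC replicate 1, 2 or 4. Its 4 control HSC libraries had 68, 118, 98.8 and 84.2 CPM and the mutants 36.1, 38.9, 63.6 and 35.5 CPM, while the MPP3 libraries had 21.1, 34.6, 32.2 and 41 and 33.2, 27.6, 27.9 and 24 CPM and overlapped. Slamf1, which with Cd48 is used to gate HSC, was not called (log2 fold change 0.12 ± 0.22, adjusted p = 0.786). The surface marker count was 5 without number 1, 4 without number 4 and 5 with the cell types averaged.

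Cd48, a surface protein whose absence is used to gate HSC and which progenitors carry, rose in both. It had 3.13, 1.94, 1.74 and 3.2 CPM in control HSC and 8.67, 4.91, 5.78 and 7.59 CPM in mutant HSC, and 194, 216, 163 and 168 CPM in control MPP3 and 334, 268, 242 and 259.8 CPM in mutant MPP3. The genotypes did not overlap in either cell type, and the mutant HSC remained far below any MPP3 library (log2 fold change 0.93 ± 0.16, adjusted p = 0.00215). Nkg7, a granule protein also found in myeloid progenitors, rose by 1.36 in HSC and 0.35 in MPP3 (average adjusted p = 0.00333). In the list of granulocyte-monocyte progenitor genes 4 of 29 were called higher and 3 lower, against 8.01% and 6.3% of all genes, with a median of -0.11. The 3 became 0 without number 1, 2 or 4 in edgeR's test and 1 with the cell types averaged, and the 4 became 2 without number 2 or 4. In bulk RNA, fewer cells of a type and less RNA per cell cannot be told apart, and this holds for each group of cell type genes described here.

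Erythroid genes gave some of the largest fold changes. Of 29 tested, 9 fell (31%) and 1 rose (3.45%), against 6.3% and 8.01% of all genes. Of the 9, 7 moved lower the same way, and the medians of the list were -0.36 in HSC and -1.50 in MPP3. Rhd, a blood group antigen of red cells, had 2.61, 10.2, 4.5 and 9.77 CPM in control HSC and 0.118, 0, 0.719 and 1.36 CPM in mutant HSC. For MPP3 the values were 34.2, 68.5, 37.1 and 66 CPM in the controls and 0.0287, 0.502, 21.7 and 2.15 CPM in the mutants. No library overlapped, and mutant MPP3 replicate 3 was the highest of the mutants (log2 fold change -4.27 ± 0.85, adjusted p = 0.00492). Car1, a red cell carbonic anhydrase, had, in CPM, 12.3, 27.9, 28.6 and 28.6 in the control HSC libraries, 0.83, 0, 11.4 and 5.96 in the mutant HSC libraries, 253, 550, 395 and 455 in control MPP3 and 6.01, 6.39, 152 and 42.4 in mutant MPP3, with the same library highest among the mutants (log2 fold change -3.63 ± 0.67, adjusted p = 0.00488). Ermap, an erythroid membrane protein (log2 fold change -3.31 ± 0.65, adjusted p = 0.00477), and Add2, an adducin of the membrane skeleton (log2 fold change -4.90 ± 1.24, adjusted p = 0.0171), also fell. In contrast Tfrc, the transferrin receptor, rose (log2 fold change 0.86), and the values for Gata1, the master regulator of erythroid cells, were 0.94 in HSC and -1.23 in MPP3, with no call on average (adjusted p = 0.875). Summed erythroid levels were 5025 to 5876 CPM in control HSC, 4072 to 4889 CPM in mutant HSC, 3655 to 4832 CPM in control MPP3 and 2115 to 3732 CPM in mutant MPP3. The count called lower was 3 without number 1, 4 without number 2, 14 without number 3, 3 without number 4 and 5 without the replicate block. The count of 1 called higher was 0 without number 1, 2, 3 or 4, without the replicate block, with no filter and with the cell types averaged. It changed to 0 or 2 in 9 of the fits that left out 1 library. Ermap lost its call without number 1 or 4, Add2 without number 2 or 4 or the block, and Car1 when the cell types were averaged per genotype and number.

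Lists of markers of other cells differed in their counts, against 6.3% of all genes called lower. Of 14 B cell genes 6 fell (42.9%) and none rose, with medians of 0.03 in HSC and -1.98 in MPP3; whether the medians differ was not tested. Cd79a, part of the B cell receptor, had 9.15, 33.1, 20.6 and 30.7 CPM in control MPP3 and 1.21, 3.91, 10.9 and 3.81 CPM in mutant MPP3, which overlapped, and at most 0.703 CPM in any HSC library (log2 fold change -2.78 ± 0.60, adjusted p = 0.00777). For genes with so few counts in HSC the average rests mainly on MPP3, where the effect of Cd79a was -2.693. The summed B cell level was 301 to 973 CPM in control MPP3 and 177 to 295 CPM in mutant MPP3, and 123 to 148 and 104 to 150.0 CPM in control and mutant HSC. Without control MPP3 replicate 2, which had the highest sum, 3 B cell genes were called, as without number 2 or 4. Of 16 neutrophil granule genes 1 was called lower (6.25%), Padi4, which citrullinates histones (log2 fold change -0.96 ± 0.12, adjusted p = 0.000573), while the median of the list was -2.33. This count was 5 without control MPP3 replicate 3, 3 without control HSC replicate 3 or mutant MPP3 replicate 3, 8 without number 3 and 6 in DESeq2. The summed granule level was 196 to 250 CPM in control HSC and 78.1 to 110 CPM in mutant HSC, without overlap, and 162 to 521 and 131 to 358 CPM in control and mutant MPP3. Padi4 alone had 161 to 204 CPM in control HSC and 55 to 93.4 CPM in mutant HSC. It thus made up most of the HSC sums, whose lack of overlap cannot be read as that of the other members. Of 11 stroma and endothelium genes 2 fell (18.2%), among them Emcn, an endothelial sialomucin that HSC also carry (log2 fold change -1.13 ± 0.18, adjusted p = 0.00179). Of 19 lymphoid progenitor genes 5 fell (26.3%), 2 without number 2 and 1 without number 4, among them Mn1 (log2 fold change -1.08 ± 0.14, adjusted p = 0.000718) and the receptor Notch1 (-0.78 ± 0.16, lost without number 4). The part of such cells in the other results was not tested.

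In the dendritic cell and macrophage list 4 of 17 were called higher (23.5%, against 8.01% of all genes) and none lower, with a median of 0.36 in HSC and -0.49 in MPP3, and the 3 with the smallest adjusted p were the class II genes H2-Eb1 (log2 fold change 1.01 ± 0.22, adjusted p = 0.0071), H2-Aa (log2 fold change 0.75 ± 0.18, adjusted p = 0.0135) and H2-Ab1 (log2 fold change 0.57 ± 0.14, adjusted p = 0.0146). H2-Eb1 had 27.8, 115, 162 and 98.2 CPM in control HSC and 103, 256, 175 and 121 CPM in mutant HSC, and 4.37, 29.3, 19 and 15.3 CPM in control MPP3 and 15.9, 86.7, 29.4 and 24 CPM in mutant MPP3. Levels differed more between numbers than between genotypes, with number 1 lowest in control HSC, yet the mutant was higher in 8 of 8 pairs. Cd74, the chain that escorts class II proteins, and Ciita, their transcriptional activator, were not called (adjusted p = 0.136 and 0.411). All 3 class II genes lost the call without number 1 and without the replicate block, and 1 gene of the list was called with the cell types averaged. Of 30 alternatives, H2-Eb1 kept its call in 28, H2-Aa in 25 and H2-Ab1 in 24. Of 44 interferon response genes 6 rose (13.6%) and 2 fell (4.55%, against 6.3% of all genes), among the risers the GTPase Igtp (log2 fold change 0.49 ± 0.11, adjusted p = 0.00905). The count that rose was 0 without number 2, in edgeR's test, and 1 without number 4 or with the cell types averaged. Igtp kept its call in 27 of 30 alternatives, and the losses included the fit without number 2. The count that fell was 1 without control MPP3 replicate 2, 3 or 4, control HSC replicate 2 or 4, mutant MPP3 replicate 1 or 2, or mutant HSC replicate 2, 3 or 4. Of 31 megakaryocyte and platelet genes 4 were called higher (12.9%) and 3 lower (9.68%), which is near the shares over all genes. The 4 became 2 without control HSC replicate 2 or 3.

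Among the largest rises that belong to none of these groups was Lgals1, which encodes galectin 1, a secreted lectin. It had 12.8, 16.1, 21.6 and 20.2 CPM in control HSC and 27.9, 25.6, 46.3 and 40 CPM in mutant HSC. In MPP3 it had 40.2, 82.7, 62 and 63.1 CPM in the controls and 126, 100.5, 108 and 148 CPM in the mutants. The genotypes did not overlap, and the effect was 0.98 in HSC and 0.98 in MPP3 (log2 fold change 0.98 ± 0.14, adjusted p = 0.00113). Emilin2, an extracellular matrix glycoprotein (log2 fold change 1.11 ± 0.17, adjusted p = 0.00137), Supt16, a subunit of the histone chaperone FACT (log2 fold change 0.87 ± 0.14, adjusted p = 0.00181), Pdss1, which makes the side chain of coenzyme Q (log2 fold change 0.89 ± 0.14, adjusted p = 0.00153), and Ms4a6c, a tetraspan membrane protein (log2 fold change 1.01 ± 0.18, adjusted p = 0.00318), rose as well and kept their calls under all 30 alternatives. Mcm8, a helicase of homologous recombination, had the largest rise by the naming rule (log2 fold change 1.27 ± 0.31, adjusted p = 0.0147). Its call was kept in 27 of 30 alternatives, and the losses included the fits without number 1 or 2.

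Plk2, a polo-like kinase induced by p53, was among the largest falls outside the erythroid genes. It had 128, 42, 28.9 and 31.6 CPM in control HSC and 15.4, 1.01, 2.08 and 4.77 CPM in mutant HSC. The MPP3 libraries had 43, 2.43, 0.796 and 1.5 CPM in the controls and 1.41, 0.0558, 0.0511 and 1.02 CPM in the mutants, with an overlap there (log2 fold change -3.63 ± 0.51, adjusted p = 0.000978). The amino acid transporter Slc38a5 also fell in both (log2 fold change -3.81 ± 0.79, adjusted p = 0.00598), with a call lost without number 2.

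**Figure D4:**
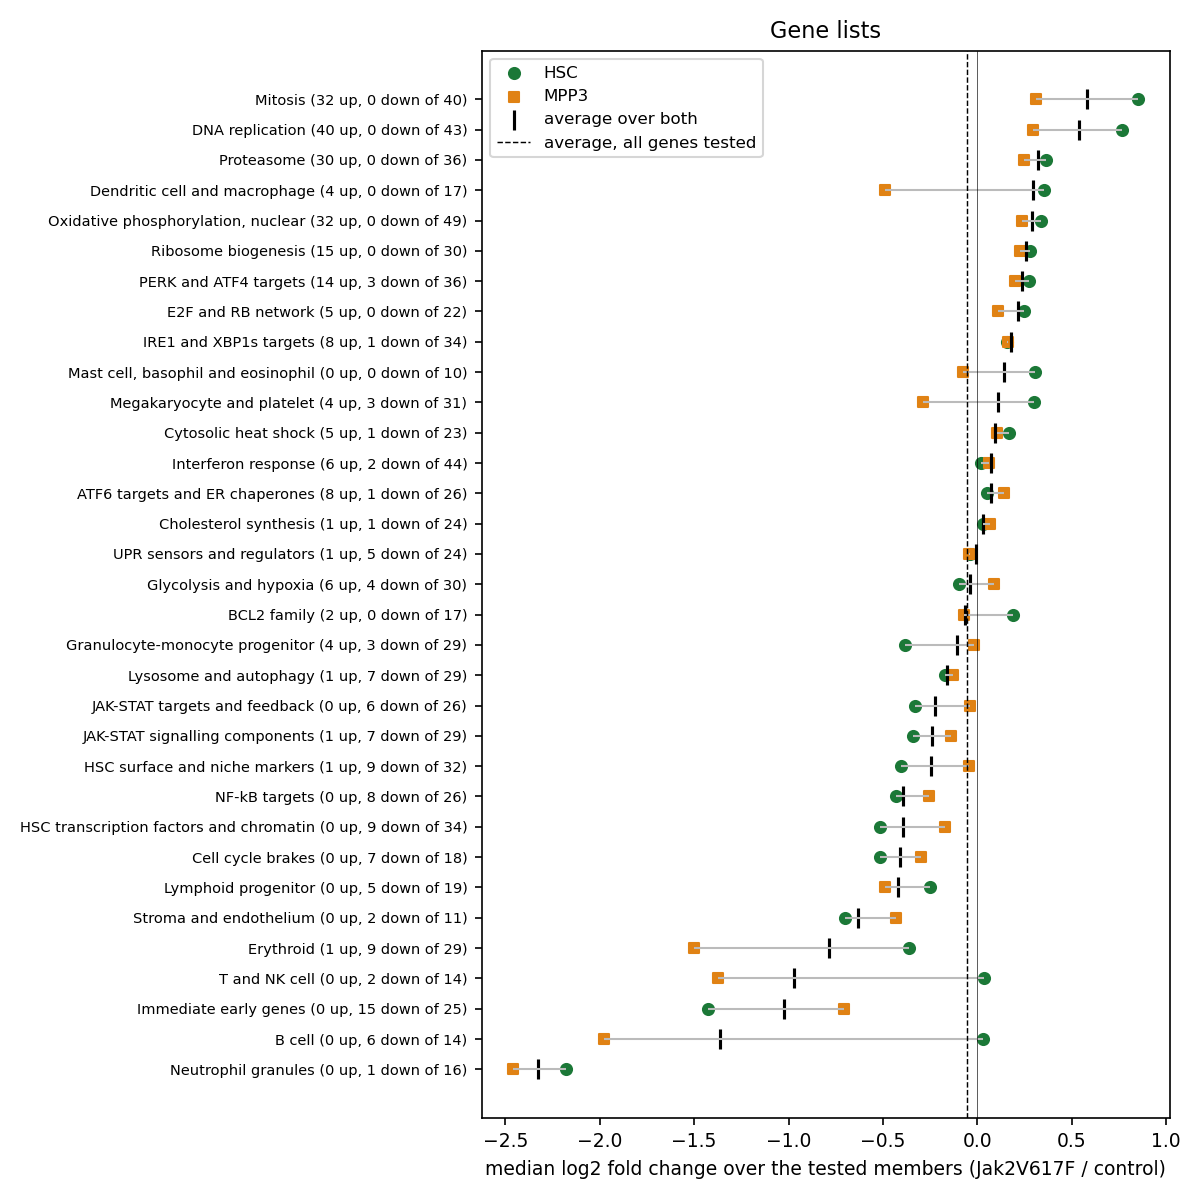
Median log2 fold change of each gene list in HSC (green circles), in MPP3 (orange squares) and on average (black bars), with the number called higher and lower of those tested and a dashed line at the median of all genes tested (-0.05). Mitosis and DNA replication lie highest, proteasome and nuclear oxidative phosphorylation genes lie above 0 in both cell types, and neutrophil granule, B cell, immediate early, T and NK cell and erythroid genes lie lowest on average, in that order from the bottom.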

How the data were processed

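RNA of 16 mouse bone marrow libraries was sequenced as pairs of 150-base reads, from 10 ng of RNA with an integrity score over 8.0 and 12 to 15 PCR cycles, per the labels. The submitters' processing notes name cutadapt 4.0, FastQC, HISAT2, Salmon and the GRCm38 (mm10) genome; the sources used here give no settings, transcript set or strand protocol. The authors deposited 1 gene table per library with estimated counts from Salmon (expected counts, not normalized). They were rounded to whole numbers. Of 31716 rows per table, 29806 gene rows were used, and 1910 rows named as transcripts (0.697% to 0.796% of the counts) were left out. Symbols and coordinates came from GENCODE M21 (GRCm38), and 16 gene rows had no symbol. Promoter sequences came from RefSeq (GRCm38.p6).

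Genes were tested with edgeR 4.0.16 (TMM, filterByExpr by group, robust glmQLFit, glmQLFTest) in R 4.3.3, with Benjamini-Hochberg adjustment over the 14179 genes kept. The average effect was the genotype coefficient of an additive model of genotype, cell type and replicate number. It is not always midway between the effects in HSC and MPP3, since it leans to the cell type with more counts. For Igkc it was -5.97, beside -4.34 in HSC and -6.00 in MPP3. For Gbp4 it was -3.09, beside -1.40 in HSC and -9.155 in MPP3. Effects in each cell type and their difference came from a fit with 1 coefficient per group plus replicate number. CPM used TMM-scaled library sizes. The SE of a log2 fold change, given after ±, was its size over the root of its F statistic. It therefore covers the estimated spread between libraries as well as counting error, whereas the floor of 3 counts covers counting error only. The fit was tested on simulated data.

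Named genes were the 12 largest rises and 12 largest falls, by the smaller of the HSC and MPP3 changes, among genes that moved the same way with a mean of at least 5 CPM, without predicted models, pseudogenes, ribosomal RNA or mitochondrial RNA. The rule added up to 3 called members of each hand-written list with the smallest adjusted p and a fixed set of pathway and marker genes. The members, lists and rule were chosen with earlier results of these data known. Some results are not reported here. Lists were described by counts and medians, with no test.

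Per the labels the number is a batch, which is the source of the pairing. Over 24 comparisons of libraries with the same number, the correlation of deviations from the group mean was -0.03 to 0.16, with the best match at the same number in 17. Between HSC and MPP3 of a genotype the best match was at the same number in 8 of 8, with correlations of 0.0821 to 0.1645. Between mutant and control of 1 cell type, the pairs used here, the correlations were lower, at -0.0056 to 0.0982. There the best match was at another number for numbers 3 and 4 in MPP3 and number 2 in HSC. Alternatives were no replicate block, a coefficient per group, RLE size factors, DESeq2 1.42.0, limma-voom (limma 3.58.1) with and without a block for genotype and number, cell types averaged per genotype and number, no filter, some genes left out, and libraries or replicate numbers left out.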

Additional observations from a re-analysis of the deposited data

Results flagged for a closer look

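Within groups of 4 libraries, 1 library stood far from the other 3 for 7 of the 156 groups looked at (39 genes in 4 groups each), judged by its gap to the nearest library as a share of the group's range on a log2 scale. Chance flags about 1 in 20 such groups. Bub1 was highest in mutant MPP3 replicate 1 (78.0 CPM, against 41.8 to 46.4 in the other mutant MPP3), and Clspn lowest in control HSC replicate 4 (7.99 CPM). Add2 was highest in mutant MPP3 replicate 3 (7.75 CPM, with no count in the other 3), the library that also had the highest Rhd and Car1 of its group. Car1 was lowest in control HSC replicate 1 (12.3 CPM). Cd79a was highest in mutant HSC replicate 3 (0.0799 CPM, with no count in the other 3). Procr was highest in mutant HSC replicate 3 (63.6 CPM), which brought it near the lowest control (68.0 CPM), and Slamf1 was lowest in mutant HSC replicate 2 (33.1 CPM).

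Gbp4, an interferon-inducible guanylate-binding protein named after its values were seen, was the gene whose mutant effect differed between MPP3 and HSC by the test of the difference itself (log2 difference -7.76, MPP3 minus HSC, edgeR's quasi-likelihood test over all genes). It had 22.4, 13.7, 14.5 and 11.2 CPM in control HSC and 8.58, 5.11, 3.25 and 7.67 CPM in mutant HSC, lower without overlap. In MPP3 the controls had 1.79, 1.17, 1.67 and 2.94 CPM and no mutant library had a count. Against a floor of 3 counts per library, the mutant MPP3 level was at least 23.4-fold lower than that of the controls, and the fitted difference depends on the prior count.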

How the results depend on the processing

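The average effect was called for 2029 genes (1136 higher, 893 lower), and over the 30 alternatives 2018 to 2029 of them were tested and kept their sign. The 2018 came from leaving out mitochondrial, rRNA and haemoglobin genes, which takes some of the 2029 out of the test. In the other alternatives the number was 2024 to 2029. No filter, other size factors, other tools and other fits gave 1682 to 2798 calls. Without the replicate block there were 1682, of which 1606 were among the 2029. Averaging the cell types per genotype and number gave 865 (439 higher, 426 lower), a fit on 8 values. Leaving out 1 library gave 1473 to 2259 (845 to 1361 higher, 559 to 970 lower), with the lower genes at 565 without mutant HSC replicate 2 and 559 without replicate 4. Leaving out 1 replicate number gave 539 to 2346 (278 to 1279 higher, 261 to 1067 lower), and leaving out mutant HSC replicates 1 and 4 gave 986 (584 higher, 402 lower). For genes that moved the same way (1151) the range was 451 to 1487 without 1 number (618, 623 and 451 without numbers 1, 2 and 4) and 845 to 1344 without 1 library. The stricter criterion met by 11 genes (1 higher, 10 lower) gave 0 in edgeR without the replicate block, with 912 moving the same way, and 0 without mutant HSC replicates 1 and 4, with 783. It gave 193 in DESeq2 (120 higher, 73 lower), 16 in limma-voom (3 higher) and 8 with no filter, none of them higher. Without 1 library it gave 1 to 18 (0 to 6 higher, 1 to 12 lower), and without 1 number 0 to 87 (0 to 54 higher, 0 to 33 lower). Of 107 named genes called, 57 kept the call under all 30 alternatives; 37 lost it without number 4, 31 without number 2, 28 without number 1, 21 with the cell types averaged, 21 without mutant HSC replicates 1 and 4, 14 without the block and 9 without some single library. The sign of Hspa5 turned without number 2 (-0.055) or 4 (-0.028), in a range of -0.055 to 0.278 without 1 number, and that of Slamf1 in limma-voom (-0.011, or -0.014 with the block for genotype and number). The sign of Atf4 turned without the replicate block (-0.019), in limma-voom (-0.003 with and without that block) and with libraries left out (-0.093 to 0.143). The causes were not tested. Size factors and tools shifted the median of all genes by at most 0.005 on the log2 scale.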

Other observations

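Over all genes 8.01% were called higher and 6.3% lower. Of 29 lysosome and autophagy genes 7 fell (24.1%) and 1 rose (median -0.16), among them Ctse, an aspartic protease of erythroid and other cells (log2 fold change -1.06 ± 0.24, adjusted p = 0.00942; -0.55 in HSC and -1.57 in MPP3), and the glycosidase Gaa (-0.36 ± 0.09). The count that fell was 0 without number 1 in edgeR's test, 2 without number 2, 1 without number 4 and 3 with the cell types averaged per genotype and number, and Ctse lost its call without any of these 3 numbers. Of 23 cytosolic heat shock genes 5 rose (21.7%) and 1 fell, with Hsp90aa1 at 0.27 ± 0.06 and the co-chaperone Dnajb4 at -0.66 ± 0.13 on the log2 scale. The 5 became 0 without number 4, 2 with the cell types averaged and 8 without control MPP3 replicate 3. In the BCL2 family 2 of 17 rose (11.8%), which is near the 8.01% of all genes. They were Bax and Bok, both activators of apoptosis (log2 fold change 0.23 ± 0.07, adjusted p = 0.0303 and log2 fold change 0.52 ± 0.16, adjusted p = 0.0426). The count was 1 without number 1, 0 without number 2, 3 or 4 and 0 with the cell types averaged. Bax lost its call under 9 of 30 alternatives and Bok under 19, including control HSC replicates 2 or 3 left out for both. For cholesterol synthesis 1 of 24 rose (Ebp) and 1 fell, for T and NK cells 2 of 14 fell (14.3%, Cd4 and Trbc1, the latter with no count in HSC), and none of 10 mast cell, basophil and eosinophil genes was called in edgeR's test. The calls of Ebp, Cd4 and Trbc1 were lost under 13 to 20 of 30 alternatives each.

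Padi4 and Cd79b were each lower in both cell types. Cd79b, the partner of Cd79a in the B cell receptor, was lower without overlap in HSC as well as MPP3, at 71.8, 71.7, 76.2 and 93.9 CPM in control HSC and 55.5, 53.1, 66.5 and 59.1 CPM in mutant HSC, and 87.8, 97.5, 89.5 and 107 and 63.8, 66.9, 82.4 and 76.7 CPM in MPP3 (log2 fold change -0.41 ± 0.07, adjusted p = 0.00196). Padi4 had 204, 161, 163 and 168 CPM in control HSC and 73.6, 93.4, 55 and 85.6 CPM in mutant HSC, and 258, 169.9, 142 and 188 and 105, 118, 95.7 and 136 CPM in MPP3, again without overlap.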
